A study of Mus musculus with 24 samples.

Results

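Fertilization of the mouse egg asks for fusion with a sperm and then for a change of the egg coat that keeps further sperm out. Transcripts of 10 genes of these steps were followed in single naturally ovulated oocytes: Cd9 and Cd81, the tetraspanins of the egg surface, Astl, which encodes the cortical granule protease ovastacin, the calcium sensor Syt1, the SNARE genes Snap23, Snap25 and Vamp3, the small GTPase genes Rab27a and Rab3a, and Nsf, the ATPase that takes spent SNARE complexes apart. They were chosen by name, with earlier results of these data known, and each matched 1 of the 25965 entries of the expression table. The oocytes came from adult wild-type females and from adult females of genotype Thy1.2-AMHTg/0, which overexpress anti-Müllerian hormone (AMH), the granulosa cell hormone that restrains follicle recruitment. The transgene is named for the Thy1.2 promoter, best known for its activity in neurons. There were 4 females per genotype, each giving 2 or 3 oocytes, and every one of the 4 sequencing lanes paired a transgenic with a wild-type female. All oocytes were freed of cumulus cells with hyaluronidase and of the zona pellucida with acid, so no coat was left around the RNA that was read. In all, 10 transgenic and 11 wild-type oocytes and 1 library of control RNA supplied with the cDNA kit were analysed; the tissue behind the control RNA is not named in the labels. The control RNA was sequenced in lane 4, together with the oocytes of that lane. Not analysed here were transgenic oocyte A of lane 1 and the library made from water, so no level measured in water stands beside the values.

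The egg surface carries CD9, a tetraspanin without which eggs bind sperm but rarely fuse with them, and the related CD81, which is made by cumulus cells as well. After fusion, calcium waves release the cortical granules, secretory vesicles docked under the egg membrane, and their ovastacin cleaves the zona protein ZP2 so that sperm no longer bind. As at a synapse, the release needs a complex of R-SNAREs on the vesicle and Q-SNAREs on the target membrane, a calcium sensor, and RAB GTPases that bring the vesicle to the membrane. SNAP25 is the neuronal member of its SNARE family and SNAP23 the widely expressed one. An ovulated oocyte makes almost no new RNA, and many of its stored messages are held or translated according to sequences near their 3′ ends.

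The oocyte libraries held 20441302 to 33341040 reads, with a median of 22485598, and the control RNA library had 22039362. A level is given in RPM, a gene's share of the library's reads times 1000000; 3 reads came to between 0.0900 and 0.147 RPM in an oocyte. Values of a genotype are the mean ± SD over its 4 females, each female being the mean of her oocytes. Across the 10987 genes compared between genotypes, Pearson's r between 2 oocytes lay between 0.907 and 0.973. Amh itself had no reads in the 10 transgenic oocytes and reached 0.0353 RPM in a wild-type oocyte, so the oocyte libraries do not check the label through the transgene. Markers of cumulus and granulosa cells summed to 64.3 to 126 RPM per oocyte, of which Cyp19a1, Nr5a2 and Kitl made up most on average; the other 23 of that list summed to 0.0972 to 44.5 RPM. The 15 oocyte markers summed to between 21377 and 35359 RPM in every oocyte and to 18.9 RPM in the control RNA. Neuron and glia markers went the other way, with 17475 RPM in the control RNA and 3.79 to 13.5 RPM in the oocytes.

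The annotated 3′ ends of the transcripts are shown for 5 genes because they set the Snap23 and Syt1 messages of the egg beside the neuronal Snap25, with Astl and Cd9 for the granule and the surface. Each line is the last 30 bases of the principal transcript in GENCODE M21 on build GRCm38, written 5′ to 3′ on the transcript's strand. Capitals mark the polyadenylation signal (AATAAA or ATTAAA) and the cytoplasmic polyadenylation element (TTTTAT or TTTTAAT), the site bound by CPEB proteins in stored oocyte messages.
Snap23: gggattAATAAAtcttaTTTTATaaactta
Syt1: acactcAATAAAaatgTTTTATttcctgtt
Snap25: ttATTAAAaattatagatcacagccaccga
Astl: ggtagaAATAAAgttgggtgtttgcttcat
Cd9: tttgatacatAATAAAagattataacagtg
These ends lie at chr2:120601226-120601255 on the plus strand for Snap23, chr10:108497652-108497681 on the minus strand for Syt1, chr2:136782399-136782428 on the plus strand for Snap25, chr2:127357622-127357651 on the plus strand for Astl and chr6:125460266-125460295 on the minus strand for Cd9. All are in the last exon. The search was made on the transcript strand alone, and neither motif overlapped the other in these windows. Snap23 and Syt1 had a cytoplasmic polyadenylation element within the window, 2 of the 10 genes, against 6.06% of 10237 compared genes with a principal transcript and 4.90% of all 21808 genes with one. In both, the element began 13 or 14 bases from the end of the transcript, downstream of the polyadenylation signal. Bases upstream of the windows were not searched, so the other genes are not shown to lack an element. A polyadenylation signal was found in 9 of the 10 genes, all but Cd81, against 68.3% of the compared genes. A motif in an annotated end describes those letters and not its use in the egg, and annotated ends can differ from those used in oocytes.

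The sperm fusion and exocytosis genes spanned a wide range of levels in the egg, with 9 of the 10 above a mean of 1 RPM and Snap25 near the limit of detection. Levels of different genes are compared per kb of exon. On that scale Astl was highest at 85.5 ± 51.6 RPM per kb (SD, n = 8 females), above 95.1% of the compared genes. Next came Nsf at 28.8 ± 5.93, Vamp3 at 28.2 ± 2.42 and Snap23 at 23.6 ± 2.91 RPM per kb. Cd9 had 11.1 ± 10.3 RPM per kb and Syt1 7.35 ± 1.00, followed by Rab27a at 4.89 ± 1.12. Rab3a at 1.51 ± 0.264, Cd81 at 1.46 ± 0.522 and Snap25 at 0.0194 ± 0.0214 RPM per kb closed the order. Ranges of the female means of neighbours in this order overlapped except for Rab27a over Rab3a and Cd81 over Snap25. Compared within each of the 8 females, these 2 orders held in 8, as did Astl over Nsf and Vamp3 over Snap23. Snap23 over Cd9 and Syt1 over Rab27a held in 7 females. Cd9 over Syt1 and Rab3a over Cd81 held in 5, and Nsf over Vamp3 in 4. The order depends on the length that is used: with the coding length in place of the exon length, 2 of the 10 genes kept their place.

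**Figure D1:**
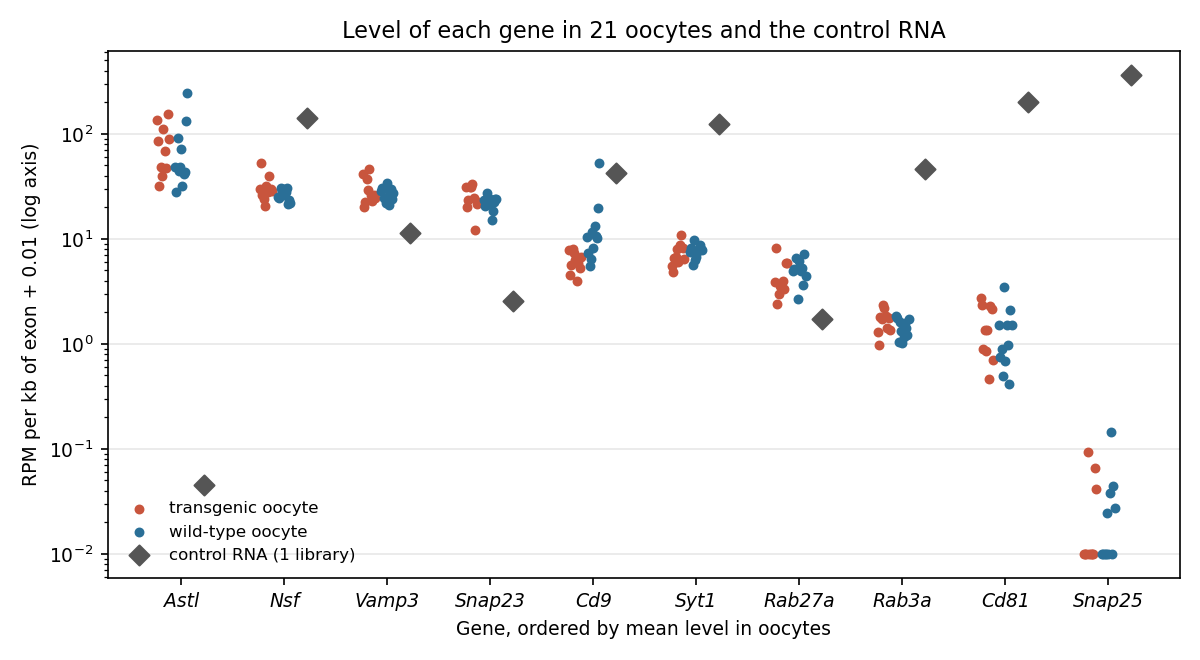
Level per kb of exon (RPM per kb plus 0.01, log axis) of the 10 genes in each transgenic oocyte (red, 10), each wild-type oocyte (blue, 11) and the control RNA (grey diamond, 1 library). Astl stands highest in the oocytes and lowest in the control RNA, Snap25 the other way round.

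The control RNA, rich in neuronal transcripts, held the same genes in another order, led by Snap25. It had 2483 RPM of Snap25, 1178 RPM of Nsf, 1040 RPM of Syt1, 578 RPM of Cd81, 102 RPM of Rab3a and 86.7 RPM of Cd9. Against the mean of the 8 females it was 18842 times higher for Snap25, 138 times higher for Cd81, 30.2 times for Rab3a, 17.0 times for Syt1, 4.89 times for Nsf and 3.84 times for Cd9. The oocytes were above it for Snap23 (9.23 times), Rab27a (2.82 times) and Vamp3 (2.48 times). For Astl the control RNA had 2 reads, or 0.0907 RPM, and the oocytes were 2413 times higher. The interval of this ratio ran from 668 to 19926 times by the exact Poisson limits of those 2 reads. There is 1 control RNA library, so these ratios have no replicate check, and intervals cover counting error only. This library shared lane 4 with oocytes of 5371 to 15990 Astl reads, and the origin of its 2 Astl reads was not tested.

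Cd9 encodes the tetraspanin that eggs need for fusion. It is annotated at chr6:125460266-125494791 on the minus strand. Its transgenic oocytes had 8.17, 12.4 and 16.5 RPM as lowest, median and highest value, and its wild-type oocytes 11.3, 21.5 and 107 RPM. The transgenic females averaged 12.7, 14.3, 11.0 and 12.2 RPM in lanes 1 to 4, and the wild-type females 15.9, 17.9, 23.1 and 73.7 RPM. Every wild-type female lay above every transgenic female, although single oocytes of the genotypes overlapped. The transgenic mean was 12.5 ± 1.36 RPM and the wild-type mean 32.7 ± 27.6 RPM (SD, n = 4 each). The difference on the log2(RPM + 1) scale was -0.99 ± 0.36 (SE), with a 95% interval from -1.77 to -0.21. By limma the unadjusted p was 0.0165, rank 212 among the 10987 genes, and the Benjamini-Hochberg adjusted p was 0.724, so Cd9 did not pass.

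By lane, the Cd9 difference was -0.31, -0.29, -1.02 and -2.35 in lanes 1 to 4, lower in the transgenic female in 4 of 4. Of the 9 compared genes of the set, Cd9 alone had 1 sign in all 4 lanes and alone had female means that did not overlap. Over all compared genes, 18.3% had 1 sign in all 4 lanes, 10.3% lower and 7.97% higher in transgenic females, and 4.31% had means that did not overlap, 2.64% lower. Much of the size came from the wild-type female of lane 4, whose 2 oocytes had 40.5 and 107 RPM. Without her the difference was -0.54, with an unadjusted limma p of 0.0228 and an adjusted p of 0.387. With only her oocyte B left out it was -0.82 with an adjusted p of 0.685, and with the lane as a block the limma p was 0.0063 and the adjusted p 0.456.

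Oocyte B of that female also held the highest level of several other egg transcripts. It had 721 RPM of Zp3, the zona protein gene, against 91.4 to 395 RPM in the other 20 oocytes, 6222 RPM of Ldhb against 740 to 3587, and 37.4 RPM of Fetub against 6.72 to 23.5. The next highest values of Zp3 and Ldhb, 395 and 3587 RPM, were those of her other oocyte, A. Oocyte B also held 622 RPM of Astl, the highest value of that gene. It was not the highest for Gdf9, at 7504 RPM against 2913 to 7734, or for Rab3d, at 332.5 RPM against 173.9 to 768.4. Its cumulus marker sum of 95.7 RPM lay within the range of the others, 64.3 to 126 RPM, as did the sum without Cyp19a1, Nr5a2 and Kitl, 1.91 RPM against 0.0972 to 44.5. Its neuron and glia sum of 13.5 RPM was the highest. Its blood and immune sum of 10.4 RPM was the lowest, beside 11.0 to 27.5 RPM in the others. The next highest neuron and glia sum, 13.46 RPM, was that of transgenic oocyte A of lane 4, the lane of the control RNA. The remaining lane 4 oocytes had 7.98 and 4.06 RPM. The part of all these values, and of the shared lane, in the Cd9 level of oocyte B was not tested. These genes were picked after their values had been seen.

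Cd81 encodes the companion tetraspanin of CD9 (chr7:143052739-143067934, plus strand). Its levels were low and uneven: 1.31, 3.86 and 7.88 RPM as lowest, median and highest transgenic oocyte, and 1.17, 2.79 and 9.98 RPM for wild-type oocytes. The female means overlapped, with a transgenic mean of 4.55 ± 1.90 RPM and a wild-type mean of 3.84 ± 1.15 RPM (SD, n = 4 each). The log2 difference was 0.22, with a 95% interval from -0.40 to 0.84 and an adjusted p of 0.873 by limma. The transgenic female of lane 1, at 7.30 RPM the highest of the 8, carried this value, which was -0.02 without her. Per kb, Cd9 made up 66.1% to 97.2% of the sum of Cd9 and Cd81 in an oocyte, with a median of 89.7%, and 17.4% in the control RNA. Cd81 shares 104 exon bases with the antisense gene R74862, which averaged 0.0702 RPM. Cd9 shares 218 with Gm26728 on the other strand, and the counting is not known to have used strand.

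**Figure D2:**
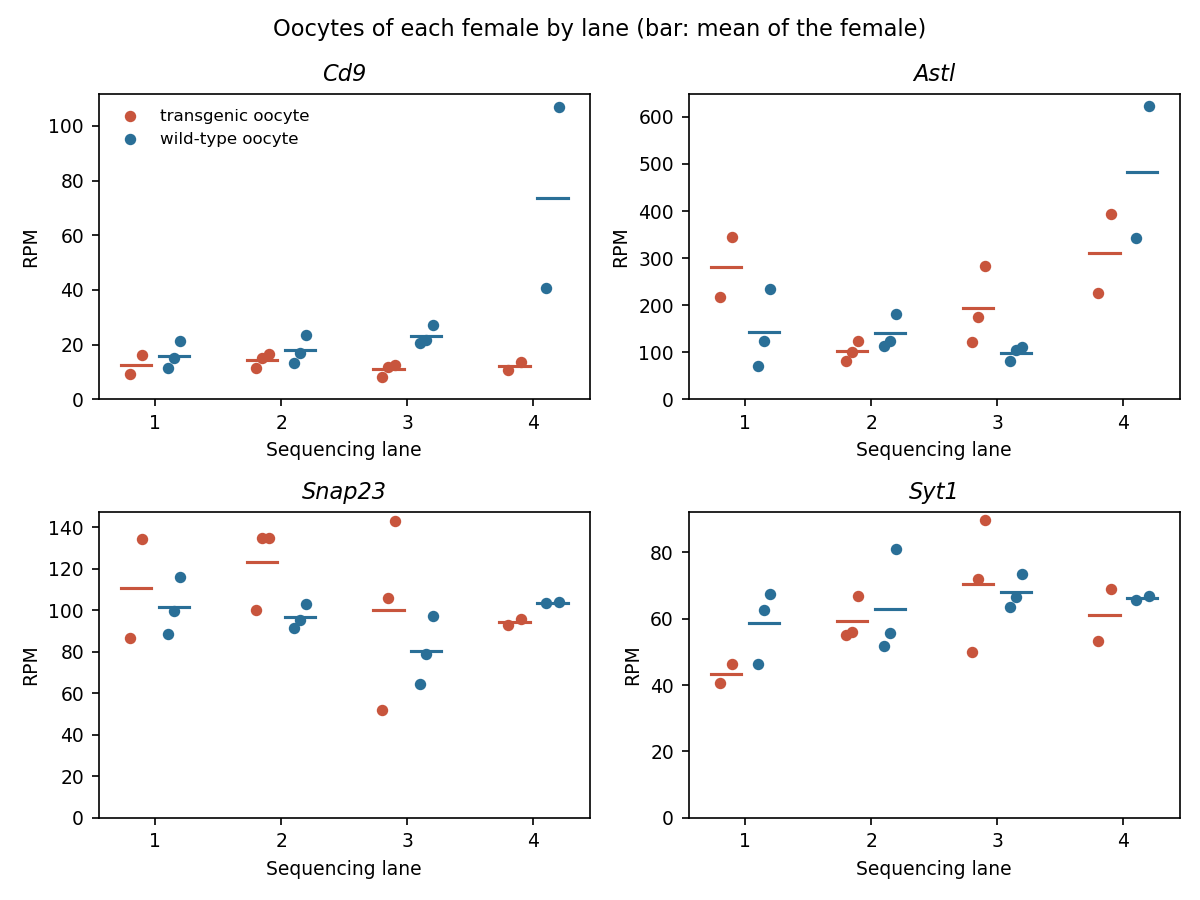
RPM of Cd9, Astl, Snap23 and Syt1 in each oocyte (points) by sequencing lane, red for transgenic and blue for wild type, with the mean of each female as a bar. The wild-type female of lane 4 stands highest for Cd9 and Astl, at 73.7 and 482 RPM, while her Snap23 and Syt1 lie among the others.

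Astl was the most variable of the abundant genes. It encodes ovastacin, the granule protease that cuts ZP2, and is annotated at chr2:127338639-127357651 on the plus strand. Lowest, median and highest oocyte were 81.6, 195 and 394 RPM in transgenic and 71.2, 124 and 622 RPM in wild-type oocytes. The transgenic females averaged 281, 102, 193 and 310 RPM in lanes 1 to 4, and the wild-type females 143, 140, 99.3 and 482 RPM. The ranges of the genotypes overlapped, the wild-type one reaching higher through the female of lane 4, with means of 222 ± 93.8 and 216 ± 178 RPM (SD, n = 4 each). The log2 difference was 0.23 with a 95% interval from -0.70 to 1.16 and an adjusted p of 0.909 by limma. It was positive in lanes 1 and 3, at 1.09 and 0.88, and negative in lanes 2 and 4, at -0.44 and -0.62. Leaving out the lane 4 wild-type female gave a difference of 0.71, with an unadjusted limma p of 0.0299 and an adjusted p of 0.397. With the wild-type female of lane 3 left out instead it was -0.03.

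Sister oocytes of 1 female differed more in Astl than in most genes of its level. The SD of log2(RPM + 1) within females was 0.54, higher than in 97.5% of 1505 genes within 2-fold of its mean level, whose median was 0.25. Among the other genes of the set it was 0.68 for Cd81, 0.48 for Cd9, 0.40 for Rab27a, 0.38 for Vamp3 and 0.34 for Snap23. Nsf had 0.26, Syt1 0.25 and Rab3a 0.24. Scarcer genes tend to differ in this SD from abundant ones, so each is also set against genes of its own level. The share of those with a lower SD was 66.3% for Cd81, 73.6% for Cd9 and 50.1% for Rab27a. It was 79.1% for Vamp3, 72.4% for Snap23, 55.9% for Nsf and 24.1% for Syt1. Rab3a was even for so scarce a transcript: 1.65% of genes of like level had a lower SD. From the lowest to the highest oocyte, Cd9 spanned 13.1 times, Astl 8.74 times and Cd81 8.50 times, and Syt1 2.21 times.

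Astl moved from oocyte to oocyte with other egg transcripts. Among 7324 genes averaging 5 RPM or more, those most like it across the 21 oocytes were Lbr, for the lamin B receptor (Pearson's r = 0.95, and 0.93 without the 2 oocytes farthest from the median), and Rnf130, for a RING finger protein (0.93 and 0.90). Plat, which encodes tissue-type plasminogen activator, a protease also reported in cortical granules and a classic stored oocyte message, followed Astl with r = 0.89, and 0.84 without the 2 farthest oocytes; this pair was chosen after the values had been seen. Plat was the most abundant message of the granule list, at 828 to 8977 RPM per oocyte. The points share lanes, females and library preparation, and Astl also correlated with the percent of reads in listed genes (r = 0.59), so these are descriptions of 21 libraries.

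**Figure D3:**
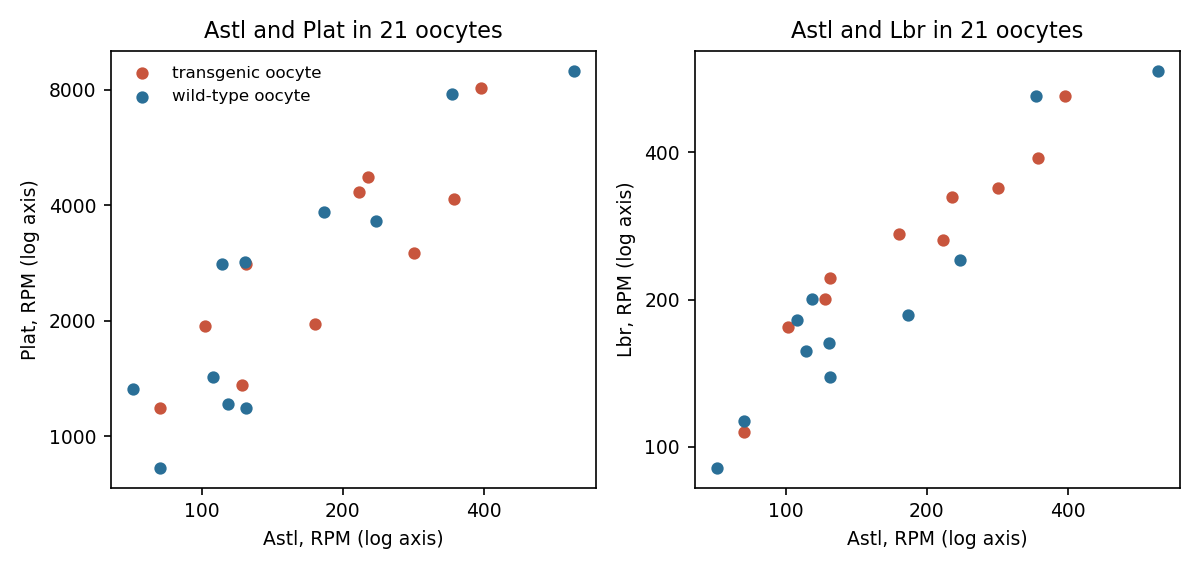
Astl against Plat (left) and Lbr (right), RPM on log axes, in 10 transgenic (red) and 11 wild-type (blue) oocytes. Both genes climb with Astl over its span of 8.74 times, and the genotypes are mixed along the trend.

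Of the SNARE genes, Snap23 and Vamp3 were abundant in every oocyte and Snap25 was barely read. Snap23, for the Q-SNARE that takes the place of SNAP25 outside neurons, is annotated at chr2:120567671-120601255 on the plus strand. It had 51.8, 103 and 143 RPM as lowest, median and highest transgenic oocyte and 64.3, 97.3 and 116 RPM in wild-type oocytes. The genotypes overlapped throughout, with means of 107 ± 12.7 and 95.5 ± 10.6 RPM (SD, n = 4 females each). The log2 difference was 0.13 with a 95% interval from -0.21 to 0.47 and an adjusted p of 0.863 by limma. 

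Snap25, the synaptic Q-SNARE gene (chr2:136713453-136782428, plus strand), had few reads in the same oocytes. In 13 of 21 it had no reads, which allows a level of up to 0.0900 to 0.147 RPM at 3 reads, depending on the library. The highest values were 0.561 RPM in a transgenic oocyte of lane 2 and 0.914 RPM in a wild-type oocyte of lane 3. Every oocyte of lane 4, the lane of the control RNA, had Snap25 reads. They came to 10 and 5 in its transgenic and 6 and 3 in its wild-type oocytes, while no oocyte of lane 1 had any. Whether the shared lane has a part in these reads was not tested. All transgenic oocytes together had 27 reads and all wild-type oocytes 35. It lay under the minimum of 1 RPM for the comparison over all genes, and an exact permutation test of the 8 female means, two-sided over 70 arrangements, gave p = 0.743, where the smallest possible is 0.0286. Per kb, Snap23 made up between 99.3% and 100% of the sum of Snap23 and Snap25 in an oocyte and 0.695% in the control RNA.

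Vamp3, for cellubrevin, an R-SNARE of recycling vesicles, is annotated at chr4:151047300-151057963 on the minus strand. Transgenic oocytes had 58.6, 75.0 and 133 RPM as lowest, median and highest, and wild-type oocytes 60.2, 79.8 and 98.05 RPM. The female means of 84.8 ± 8.09 and 78.1 ± 4.22 RPM (SD, n = 4 each) overlapped, and the log2 difference was 0.08, with an interval from -0.22 to 0.38 and an adjusted p of 0.901 by limma. Vamp3 and Snap23 were the pair that moved together most among the 36 pairs of the 9 compared genes, with r = 0.64 over the 21 oocytes against a median of -0.04 over all pairs. The pair with the most opposed values was Rab27a and Rab3a, at -0.52. The libraries share lanes and females, and Snap23 also correlated with the percent of reads in listed genes (0.65), as Syt1 did in the opposite direction (-0.74).

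Nsf encodes the ATPase that, with SNAP adaptor proteins, unwinds SNARE complexes after fusion (chr11:103821782-103954056, minus strand). Its oocytes ran from 173 over 243 to 438 RPM in transgenic and from 178 over 218 to 253 RPM in wild-type females. The highest single value, 438 RPM, came from oocyte C of the transgenic female of lane 1. The means were 265 ± 61.4 and 216 ± 19.1 RPM (SD, n = 4 each). The log2 difference was 0.25, with an interval from -0.10 to 0.61 and an adjusted p of 0.764 by limma. It was positive in lanes 1, 3 and 4 and -0.24 in lane 2.

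Syt1, the gene of synaptotagmin-1, the calcium sensor of fast synaptic release, is annotated at chr10:108497650-109010982 on the minus strand and was plainly present in every oocyte. Values were 40.6, 55.6 and 89.7 RPM as lowest, median and highest transgenic oocyte, and 46.4, 65.6 and 81.1 RPM for wild-type oocytes. The female means overlapped, at 58.6 ± 11.3 and 63.9 ± 4.02 RPM (SD, n = 4 each), with a log2 difference of -0.15, an interval from -0.51 to 0.22 and an adjusted p of 0.860 by limma. Neuron and glia markers summed to at most 13.5 RPM in any oocyte. The control RNA had 17475 RPM of those markers and 1040 RPM of Syt1. The source of the Syt1 reads in the oocytes was not tested.

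The RAB genes had low levels in the oocytes. Rab27a, for the GTPase that docks lysosome-related granules (chr9:73044865-73097592, plus strand), had 9.29, 14.6 and 31.7 RPM as lowest, median and highest transgenic oocyte and 10.4, 19.9 and 27.7 RPM in wild-type oocytes. Its means were 17.9 ± 6.01 and 20.0 ± 2.34 RPM (SD, n = 4 females each), a log2 difference of -0.19 with an interval from -0.70 to 0.32 and an adjusted p of 0.868 by limma. Its level correlated with the log2 library total (r = 0.61 over 21 oocytes), and 149 of its exon bases are shared with the pseudogene Gm27186, so its reads could be split. Rab3a, for the synaptic vesicle GTPase (chr8:70754679-70758677, plus strand), had 2.13, 3.86 and 5.14 RPM in transgenic and 2.24, 3.13 and 4.06 RPM in wild-type oocytes. Its means of 3.57 ± 0.804 and 3.17 ± 0.225 RPM (SD, n = 4 each) overlapped, with a log2 difference of 0.12, an interval from -0.36 to 0.61 and an adjusted p of 0.907 by limma.

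No gene of the set passed the comparison of genotypes. By limma with Benjamini-Hochberg adjustment, 0 of 10987 genes (0%) had an adjusted p below 0.05, and 0 of the 9 compared genes of the set did. At an unadjusted p below 0.05 there were 748 genes (6.81%), 305 higher (2.78%) and 443 lower (4.03%) in transgenic females, and in the set Cd9 alone of 9. The estimates were positive for 6 of the 9 genes and negative for 3, with a median of 0.12, beside -0.01 over all compared genes. Female means of the genotypes overlapped in 8 of the 9 genes.

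**Figure D4:**
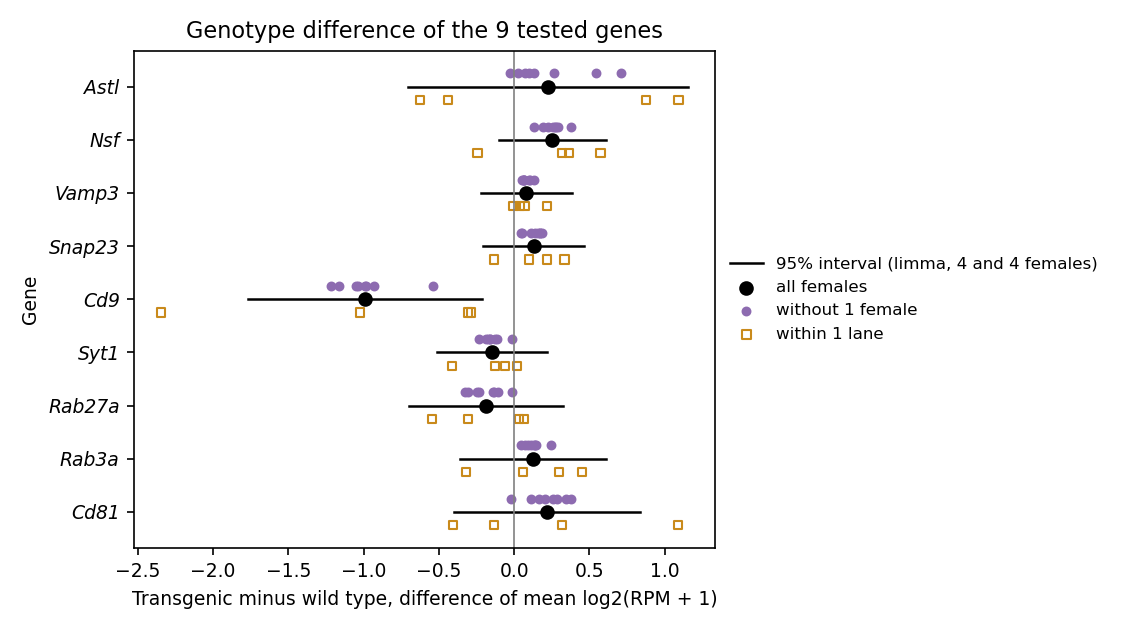
Transgenic minus wild type, as the difference of mean log2(RPM + 1), for the 9 compared genes: black points with 95% intervals for all 8 females, purple points with 1 female left out, open squares within each lane. Cd9 lies below 0 in all of these, moving from -0.99 to -0.54 when the lane 4 wild-type female is left out.

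The surrounding machinery of the egg was read from 12 lists of pathway genes, named from general knowledge but with earlier results of these data known. They held 183 genes beside the set, of which 179 had an entry in the table. Of these, 115 were compared between genotypes; 59 estimates were positive and 56 negative, and 0 passed at an adjusted p below 0.05 (limma, Benjamini-Hochberg). At an unadjusted p below 0.05 there were 6 (5.22%), 2 higher and 4 lower in transgenic females, a share below the 6.81% over all compared genes, so the 6 are named as a description. The 2 higher were Myo5b, for a myosin that carries RAB11 vesicles (339 ± 47.5 against 255 ± 22.5 RPM), and Exoc1, for a subunit of the exocyst tether (183 ± 33.0 against 134 ± 6.74 RPM). Both were higher in 4 of 4 lanes, as were 7.97% of all compared genes. The 4 lower were Fetub, for the ovastacin inhibitor fetuin-B (11.3 ± 2.20 against 19.2 ± 7.16 RPM), Syt5 (0.744 ± 0.476 against 2.15 ± 0.872 RPM), Stxbp3a, for a Munc18 protein (2.85 ± 0.679 against 4.74 ± 1.05 RPM), and the exocyst gene Exoc6b (1.57 ± 0.727 against 3.12 ± 1.21 RPM). Of these 4, Stxbp3a was lower in 3 of 4 lanes and the others in 4 of 4, as were 10.3% of all compared genes. Each of the 6 had an adjusted p of 0.724 by limma.

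On the egg surface, the sperm receptor JUNO, listed under its older symbol Folr4, had 91.4 RPM as mean of the 8 females and no reads in the control RNA. Its transgenic and wild-type means were 82.3 ± 16.6 and 100 ± 20.9 RPM, with a log2 difference of -0.29 and an adjusted p of 0.765 by limma. Of the 11 genes of egg surface partners, 7 were compared, and 5 estimates were positive and 2 negative. The integrin gene Itga9 (660 RPM) and the complement regulator gene Cd55 (580 RPM) were the most abundant of them. Igsf8 and Ptgfrn, for immunoglobulin proteins that bind CD9 and CD81, were scarce at 0.963 and 4.79 RPM. Among 29 other tetraspanin genes, Tspan14 had 52.0, Tspan9 16.8 and Tspan5 12.9 RPM per kb, above the 11.1 RPM per kb of Cd9. Of the sperm-side fusion genes, Tmem95, 1700034O15Rik (an older symbol of Llcfc1) and Spaca4 had no reads in the oocytes, and Izumo1 had reads in 4 of 21, while 4930451I11Rik averaged 6.18 RPM.

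In the coat and granule lists, Zp3 had 147 RPM per kb, Zp1 65.6 and Zp2, the substrate of ovastacin, 34.2 RPM per kb. Plat had 592 RPM per kb, and Fetub, whose protein reaches the egg mostly from the blood, was itself read at 15.3 RPM in the oocytes and not in the control RNA. Of the 7 compared genes of the granule list, 4 estimates were positive and 3 negative, and of Zp1, Zp2 and Zp3 the estimate of Zp2 was positive and the other two negative. The zona list also held Zp3r, a sperm acrosome gene despite its name, with 6.06 RPM in the oocytes and a difference of -0.0045.

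Across the SNARE families, the synaptic Vamp2 was near the limit of detection, and Stx12, Bet1 and Sec22b, of endosomal and Golgi traffic, were abundant. Vamp2, for the R-SNARE of synaptic vesicles, had 0.0441 RPM per kb against 28.2 for Vamp3, and 448 RPM per kb in the control RNA. Sec22b had 22.5, Vamp4 6.52 and Vamp8 0.489 RPM per kb in the oocytes. Of the Q-SNAREs, Stx12 had 47.4, Bet1 40.6 and Stx7 22.4 RPM per kb, Snap29 had 9.68 and Snap47 5.73. Of 23 other Q-SNARE genes compared, 9 estimates were positive and 14 negative. The adaptor genes that work with Nsf stood at 6.22 RPM per kb for Napg, 2.06 for Napa and 0.134 for the brain form Napb.

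Among the RABs and their partners, the close relative Rab3d had 78.2 ± 28.9 RPM per kb (SD, n = 8 females) against 1.51 for Rab3a. Rab11a, of recycling vesicles, had 134 RPM per kb, and Sytl4, for the granule effector granuphilin that binds RAB27A and RAB3 proteins, 51.1. Unc13c, of the Munc13 priming family, stood at 68.1 RPM per kb, and the synaptic Unc13a at 0.0159. Of the calcium sensors, Esyt2 had 19.3 and Syt11 7.05 RPM per kb, Syt7 1.31, and Syt3 no reads in any oocyte. Of the 24 RAB, regulator and effector genes compared, 16 estimates were positive and 8 negative, with a median of 0.07.

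**Figure D5:**
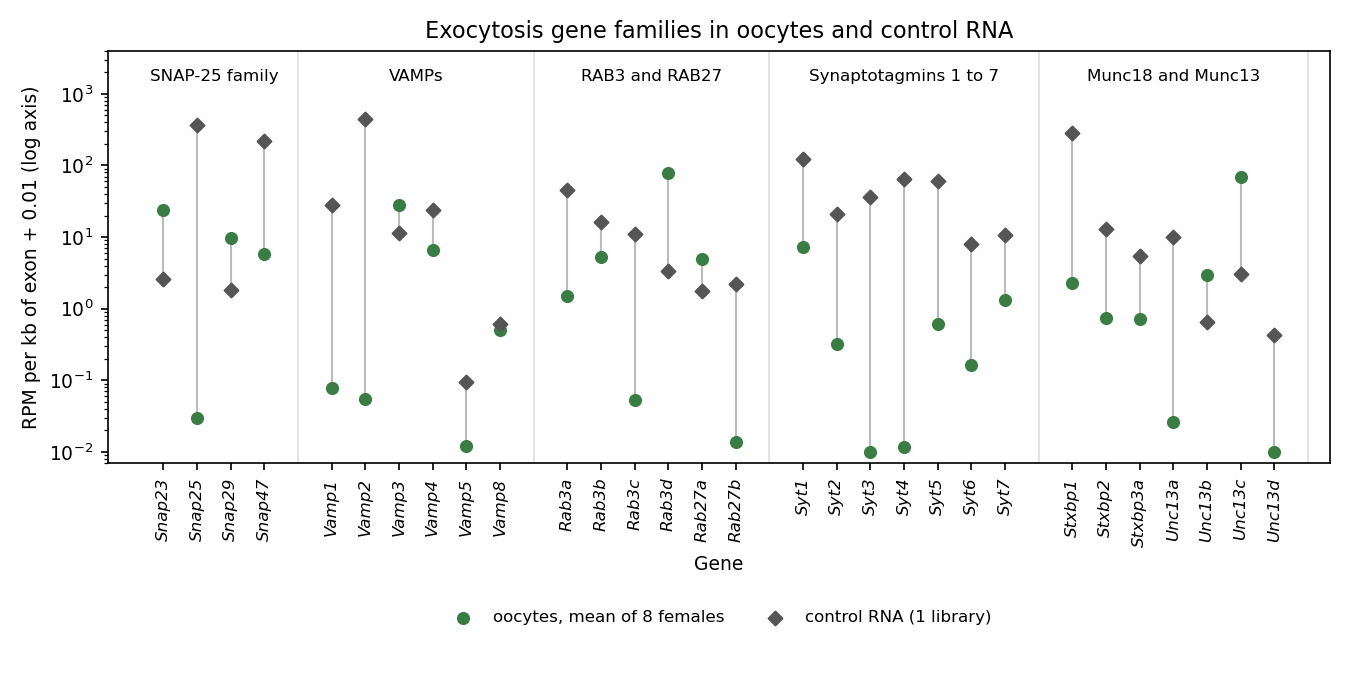
Level per kb of exon (RPM per kb plus 0.01, log axis) of SNARE, RAB, synaptotagmin and priming gene families, as the mean of 8 females (green circles) and in the control RNA (grey diamonds, 1 library). Snap23, Vamp3, Rab3d and Unc13c stand far higher in the oocytes than their relatives Snap25, Vamp2, Rab3c and Unc13a, which are higher in the control RNA than in the oocytes.

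The transcripts most like the other genes of the set across the 21 oocytes were found by the same search of 7324 genes. For Cd9 they were Prickle4 and Tomm6, each with r = 0.89, which became 0.63 and 0.64 without the 2 oocytes farthest from the median. For Nsf they were Txnrd3 (0.90) and Ehd4 (0.89), for Snap23 Cnot7 and Mcm4 (both 0.86), for Syt1 Mei4 (0.85) and Mycbp (0.82), and for Vamp3 Orc5 (0.83). For Rab27a they were Snrnp40 (0.81) and Asf1a (0.78), for Rab3a Cbll1 (0.79) and Mnd1 (0.78), and for Cd81 Fmo4 (0.74) and Fanci (0.71). These are the highest values of a long search and are given as descriptions.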

How the data were processed

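Single oocytes were lysed and their cDNA amplified with the SMART-Seq v4 kit, per the labels' protocols; HISAT2, Trim Galore and FastQC are listed in the submitters' processing notes, with builds mm39 and GRCm39. The counter and its annotation: not given in the sources used here. The deposited values are log2 values made by the authors, described as RPKM; they behave as log2 RPM, with 0.9 reads where a gene has none, and 99.84% came out within 0.02 of a whole read. RPM was therefore used in place of RPKM. The coordinates fit GRCm38: 99.8% of 24987 matched IDs overlapped their GENCODE M21 gene.

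Oocytes were averaged per female as log2(RPM + 1), which understates changes of low genes, and genotypes compared with limma 3.58.1 (trend, two-sided, Benjamini-Hochberg threshold 0.05) over the 10987 genes averaging 1 RPM or more, after a test on simulated data. Exon lengths came from GENCODE M21. The labels put 1 female of each genotype in each lane, so lanes pair females; deviations of lane mates correlated at -0.0403, 0.0835, 0.342 and 0.317 across genes, the other pairs having a median of -0.0546. The members and lists were chosen with earlier results of these data known. Named list genes were the 2 with the smallest p and the 2 most abundant of each list, and for each member the 2 most alike genes; others were named after their values were seen. Alternatives were pseudocount, filters, scaling, voom, lane block, single oocytes and each female left out. Some items that these rules select are not reported here.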

Additional observations from a re-analysis of the deposited data

Results flagged for a closer look

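In the wild-type females, 1 value of Cd9 and 1 of Astl stood apart from the other 3. For Cd9 it was the female of lane 4, at 73.7 RPM, where the nearest other female had 23.1 RPM and the farthest 15.9 RPM, a gap of 0.876 of the whole range. For Astl it was the same female, at 482 RPM, where the others had 99.3 to 143 RPM, a gap of 0.885 of the range. Both were above Dixon's critical value for 4 samples, which chance exceeds in about 1 in 20 groups. In all, 30 groups were looked at and 2 stood out, both with this female, a share near that rate. The gaps were taken on RPM and not on log2(RPM + 1), where the rule was not applied. On that log2 scale she had 6.07 against 4.03 to 4.58 for Cd9, and 8.85 against 6.64 to 7.11 for Astl.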

How the results depend on the processing

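Across 19 alternatives no member passed. Over all genes 0 passed, except 12 with single oocytes in place of means (female random, lane as replicate block), and between 0 and 1 with 1 female left out (1 without the transgenic female of lane 1). The lane as replicate block on female means gave 0 genes and changed no call. Of 169 member values 167 kept their sign, and of 732 values of named list genes 713 did; the cause was not tested. With reads in listed genes as total, Stx12 was -0.0062; without wild-type oocyte B of lane 4, an alternative chosen after seeing the data, Zp1 was 0.0054. With 1 female left out, ranges crossing 0 were Cd81 -0.0212 to 0.3794, Astl -0.0279 to 0.711, Tspan5 -0.0050 to 0.3713, Tspan14 -0.0407 to 0.5405, Stx12 -0.1248 to 0.2657, Vamp4 -0.0635 to 0.0656, Zp1 -0.2132 to 0.0694, Zp3 -0.4107 to 0.3767, Stxbp5 -0.0089 to 0.2119, Plat -0.1019 to 0.7678 and Rab11a -0.1582 to 0.0561. The labels do not say how sister oocytes or lanes were randomized. Among the members, Snap25 alone had oocytes without reads. Cd81 and Rab3a had as few as 24 and 48 reads in an oocyte.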
